A study of Rattus norvegicus with 20 samples.

Results

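The genes described here carry signals from G protein-coupled receptors to cyclic AMP (cAMP) and from cAMP to its effectors. They were chosen by name and level: protein-coding genes named as a Gα subunit (*Gna*), an adenylyl cyclase (*Adcy*), a phosphodiesterase (*Pde*), a subunit of protein kinase A (*Prkac*, *Prkar*), an A-kinase anchoring protein (*Akap*), a regulator of G protein signalling (*Rgs*) or a Rap guanine nucleotide exchange factor (*Rapgef*), with a mean of at least 10 normalized counts over all libraries. Of 102 such genes 81 reached that mean, which is 0.345% of the 23487 genes listed. They are 13 Gα subunits, 5 adenylyl cyclases, 6 subunits of protein kinase A (PKA), 6 RAPGEFs, 14 AKAPs, 22 phosphodiesterases and 15 RGS proteins. The rule itself uses no difference between groups, but the members were chosen with earlier results of these data known.

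The 21 genes left out averaged below 10, and *Adcy4*, *Akap4*, *Pde6h* and *Rgs18* were listed at 0 in all libraries. *Pde6a*, a subunit of the retinal phosphodiesterase, was just inside the threshold with a mean of 10.05, and *Gnat1*, the Gα subunit of rods, was just outside with 9.92. *Rgs4*, which acts on Gi and Gq proteins, was left out at a mean of 6.95. Its counts were 10.2, 32.0, 15.2 and 6.73 with the *Piezo1* siRNA and 2.97, 5.89, 6.34 and 1.45 with the non-targeting siRNA. The names also take in genes that do not degrade cyclic nucleotides: *Pde4dip* (myomegalin), *Pde6d* (a carrier of prenylated proteins) and *Pde12* (a mitochondrial enzyme that trims RNA). *Gnas* and *Pde4c* were each listed on more than one Ensembl number, and reads could be split between the copies.

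In β cells, receptors for incretin hormones act through Gs, encoded by *Gnas*, on adenylyl cyclases that make cAMP, while Gi, Go and Gz proteins inhibit them. Phosphodiesterases degrade cAMP or cGMP, and RGS proteins shorten the active state of Gα subunits by speeding up GTP hydrolysis. cAMP acts through PKA, which AKAPs hold at defined places in the cell, and through the exchange factors EPAC1 and EPAC2, encoded by *Rapgef3* and *Rapgef4*, and it amplifies glucose-induced insulin secretion.

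The data were 20 mRNA libraries of INS-1 832/13, a clonal insulin-secreting line derived from a rat insulinoma that also carries the human proinsulin gene, so that all groups come from one line. Of 5 groups with 4 libraries each, one was untransfected. The others received a non-targeting siRNA (si-Ctrl), a pool of siRNAs against *Piezo1* (si-P1), a pool against *Piezo2* (si-P2) or both pools (si-P1+2), at 25 nM with Lipofectamine RNAiMAX. Whether si-P1+2 held 25 nM of each pool or in total is not given here. In comparisons that use si-P1+2, effects of dose and of combining the pools therefore cannot be told apart. Cells were transfected again after 48 h and harvested another 48 h later. PIEZO1 and PIEZO2 are mechanosensitive cation channels, and the design asks which transcripts depend on either. The sources used here do not say that replicates were separate cultures, so p-values measure the spread between libraries, which may be technical. Effects of losing a channel and other effects of a siRNA pool cannot be told apart, nor, in bulk RNA, can fewer cells of a kind and less RNA per cell.

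Recovered reads ranged from 16679934 to 56926609 per library. *Piezo1* was 105 to 132 normalized counts in si-P1, 112 to 145 in si-P1+2 and 271 to 386 in the other groups. *Piezo2* was near the floor, with 3.71 to 12.7 in si-P2 and 8.91 to 14.7 in si-Ctrl, so its own target gave no clear check of the label si-P2. All 12 β-cell markers were present. Markers of other cells were at or near the floor except *Gcg*, *Pdgfra* and *Sox9*; the summed fibroblast list, nearly all *Pdgfra*, was 268 to 286 in si-P1 and 146 to 228 in si-Ctrl, with *Col1a1*, *Col1a2* and *Col3a1* at means of 1.07, 1.34 and 0.193. The remaining gene of that list, *Pdgfrb*, was lower in si-P1 (1.70 to 4.71) than in si-Ctrl (10.4 to 18.8). The part of these genes in the results was not tested. si-Ctrl replicate 3 stood apart. Its score on the first principal component was 67.0, against −18.1 to 16.1 in the others, and its median correlation with its own group was 0.940, against at least 0.983. It was the lowest si-Ctrl library for *Gnaq* (770, against 1670 to 2056), *Adcy1* (183, against 687 to 883) and *Rapgef1* (1046, against 1813 to 2154), and the highest for *Gna15* and *Rgs10*.

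With the *Piezo1* siRNA, 16 of the 81 members changed against si-Ctrl, 10 higher and 6 lower, at an adjusted p under 0.05 in a limma fit over all 15802 genes tested. That is 19.8% of the members, where 13.3% of all genes tested passed (7.07% higher and 6.28% lower). The calls were uneven over the classes. Of the 22 phosphodiesterases 6 were higher and 1 lower, and of the 15 RGS proteins 1 was higher and 3 lower. Among AKAPs 2 of 14 were higher, among RAPGEFs 1 of 6 was higher, and among Gα subunits 2 of 13 were lower. Of the 5 adenylyl cyclases and 6 PKA subunits 0 passed in limma, 0 had an unadjusted p under 0.05, and DESeq2 and edgeR on recovered reads called 0. Of all 15802 genes tested 4090 had an unadjusted p under 0.05. The median log2 fold change was 0.07 over the members and 0.02 over all genes tested, with 0.22 over phosphodiesterases, 0.14 over AKAPs and −0.19 over RGS proteins. Without si-Ctrl replicate 3 the count was 23, with 10 higher and 13 lower, and the median over the members turned to −0.04, with 0.03 over phosphodiesterases, −0.04 over AKAPs and −0.20 over RGS proteins. Against untransfected libraries the median over the members was −0.03. With only these groups in the fit, 4 members passed: *Akap12*, *Gna15*, *Rgs10* and *Rgs22*. With a term for the replicate number in the fit (replicate block), 23 members passed. Shares of all genes tested under these other settings are not given here.

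**Figure D1:**
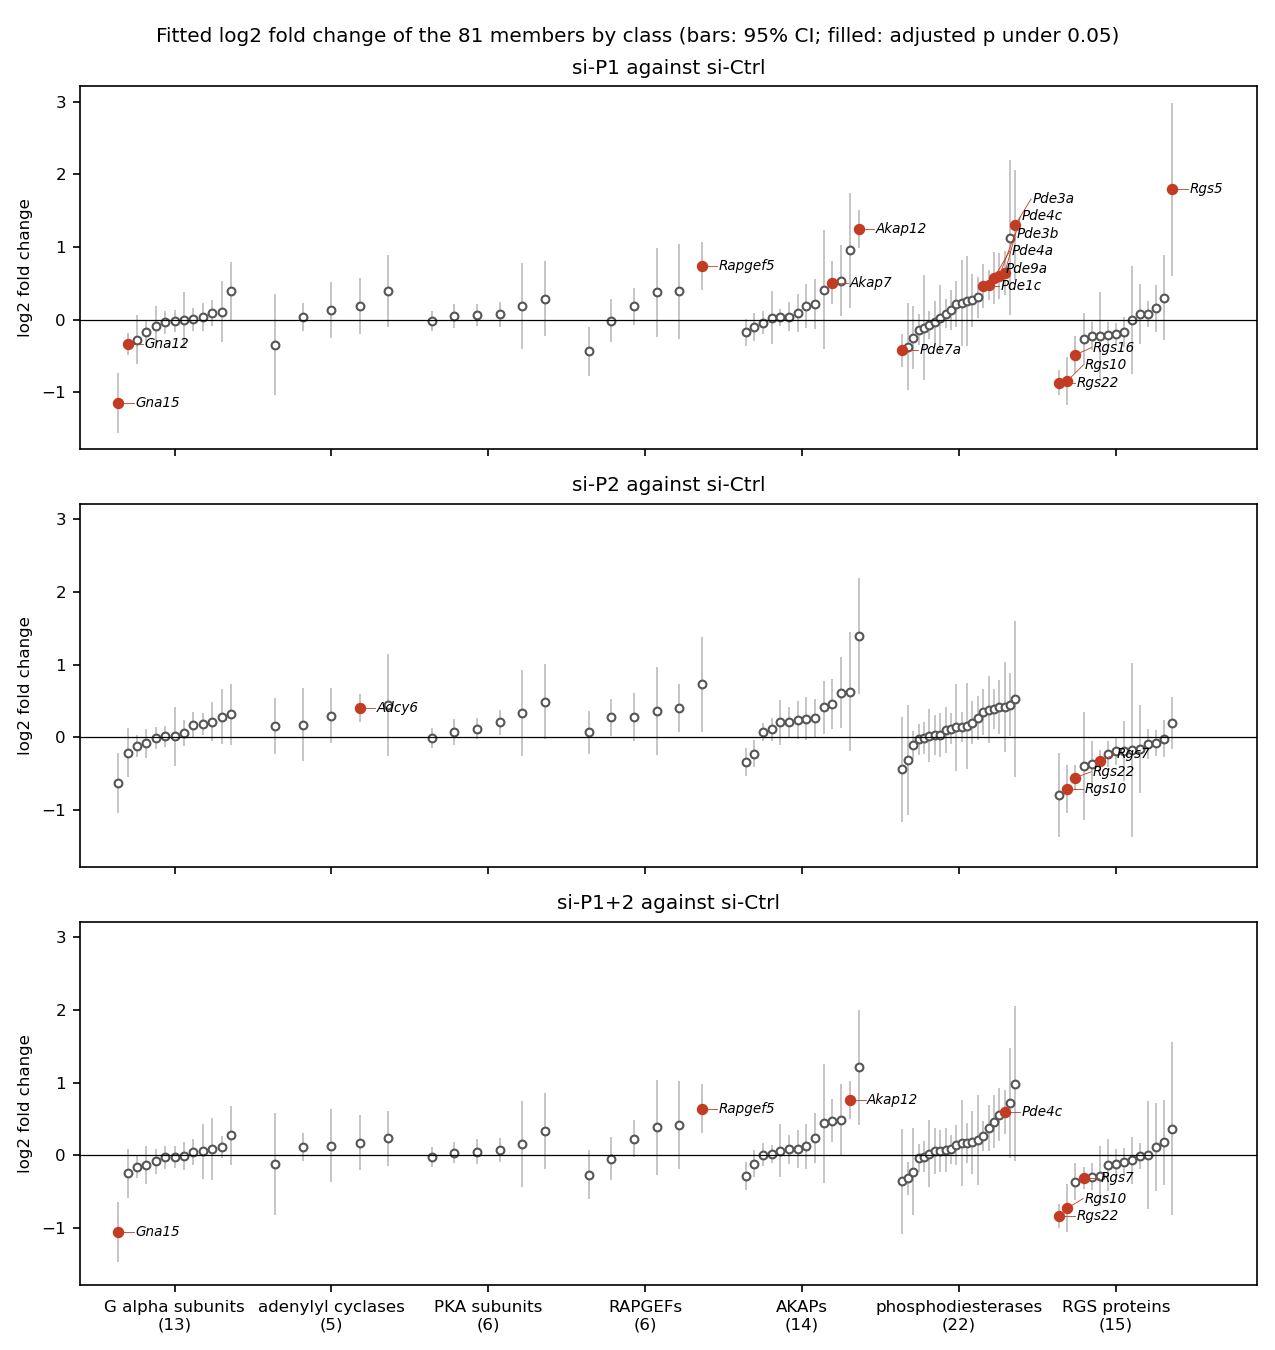
Fitted log2 fold change of each of the 81 members, in columns by class with the number of members in parentheses, with a panel for each of the siRNA treatments against the same si-Ctrl libraries. Points are members in order of their fold change, bars are 95% confidence intervals, and filled points passed an adjusted p of 0.05 (limma); 16 points are filled in si-P1, 4 in si-P2 and 7 in si-P1+2.

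Among the Gα subunits *Gna15* and *Gna12* fell. *Gna15* encodes Gα15, a promiscuous member of the Gq class that couples many receptors to phospholipase C. In si-P1 its counts were 111, 94.2, 112 and 103, and in si-Ctrl they were 165, 192, 356.5 and 264.5. The groups did not overlap, and the log2 fold change was −1.15 (SE 0.20, adjusted p = 0.000556, limma). The highest si-Ctrl value was that of replicate 3, and against untransfected cells, at 164.5 to 239.8, the difference was −0.80 on the log2 scale. *Gna12*, a Gα subunit of a class of its own beside Gs, Gi and Gq, was 10218, 9683, 9170 and 8649 in si-P1. In si-Ctrl it was 12442, 11270, 12413 and 11325. Each si-P1 library lay below each si-Ctrl library, by −0.33 on the log2 scale (SE 0.07, adjusted p = 0.00402, limma).

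The Gα subunits that act on adenylyl cyclase did not pass the test in the main limma fit. *Gnao1*, the Go subunit, passed as lower once si-Ctrl replicate 3 was left out (log2 fold change −0.28, adjusted p = 0.00107, limma). It also did so in si-P1+2 (−0.33, adjusted p = 0.000647, limma). The main *Gnas* entry (ENSRNOG00000047374), which encodes Gαs, was 59747 ± 1847 (SD, n = 4) in si-P1 and 61649 ± 8639 in si-Ctrl, a log2 fold change of −0.04 with a 95% confidence interval of −0.19 to 0.12. The second entry was 1592 ± 237 and 1618 ± 425, with an interval of −0.38 to 0.38. *Gnai2*, an inhibitory subunit, had an interval of −0.15 to 0.16. For *Gnaz*, the inhibitory subunit Gαz that restrains cAMP in islets of mice, the log2 fold change was −0.17 (adjusted p = 0.192, limma), and with the replicate block it passed (adjusted p = 0.0335, limma). *Gnaq*, the main activator of phospholipase C, had 1607 ± 130 in si-P1 and 1583 ± 565 in si-Ctrl, an interval of −0.31 to 0.53 that si-Ctrl replicate 3 widens.

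Values of the adenylyl cyclases overlapped between si-P1 and si-Ctrl. *Adcy8*, a calcium-stimulated cyclase linked to incretin responses in β cells, was 313 ± 57.4 (SD, n = 4) in si-P1 and 287 ± 58.7 in si-Ctrl, a log2 fold change of 0.13 with an interval of −0.25 to 0.51. *Adcy5*, which calcium inhibits, was 139, 94.2, 131 and 76.0 in si-P1 and 84.6, 93.2, 90.1 and 61.6 in si-Ctrl. The groups overlapped, and the log2 fold change of 0.39 missed the threshold (adjusted p = 0.321, limma) but passed with the replicate block (adjusted p = 0.0345, limma). *Adcy1*, another calcium-stimulated cyclase, was 591, 393, 377 and 398 in si-P1 and 883, 822, 183 and 687 in si-Ctrl. Its log2 fold change of −0.35 had an adjusted p of 0.564 (limma). Without si-Ctrl replicate 3 it was −0.88 and passed (adjusted p = 0.000521, limma), so that this library alone decided the call against si-Ctrl. All si-P1 libraries of *Adcy1*, up to 590.5, lay below all si-P2 libraries, from 592.4. That difference, examined after the data were seen, did not pass in the main limma fit. It passed with DESeq2 (−0.78, adjusted p = 0.0399) and with only these groups in the fit (−0.79, adjusted p = 0.00353, limma).

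PKA and the exchange factors make up the next step. *Prkaca*, the main catalytic subunit, was 4859 ± 234 (SD, n = 4) in si-P1 and 4956 ± 589 in si-Ctrl, with an interval of −0.16 to 0.11 on the log2 scale. *Prkar1a*, the regulatory subunit that holds the kinase inactive until cAMP binds, had an interval of −0.08 to 0.21. Across the 6 PKA subunits fitted log2 fold changes ran from −0.02 to 0.29. *Rapgef4* (EPAC2), the exchange factor through which cAMP acts on secretory granules in β cells, was 443 ± 22.9 in si-P1 and 461 ± 119 in si-Ctrl, an interval of −0.31 to 0.28. Its lowest si-Ctrl value, 285.5, was that of replicate 3. Without that library *Rapgef4* passed as lower in si-P1 (−0.23, adjusted p = 0.0266, limma) and in si-P1+2 (−0.27, adjusted p = 0.0197, limma). *Rapgef5*, which activates Rap, was 2691, 2112, 2154 and 2439 in si-P1 and 1957, 1530, 861.5 and 1493 in si-Ctrl. All si-P1 values lay above all si-Ctrl values, and the log2 fold change was 0.74 (SE 0.16, adjusted p = 0.00397, limma). *Rapgef1*, an activator of Rap downstream of tyrosine kinases, went the other way: 1342, 1326, 1185 and 1147 in si-P1 and 1976, 2154, 1046 and 1813 in si-Ctrl. The si-Ctrl libraries lay above all si-P1 libraries except replicate 3, which lay below them all. The log2 fold change of −0.43 missed the threshold (adjusted p = 0.0827, limma) but passed with edgeR and DESeq2 on recovered reads (adjusted p = 0.0438 and 0.0199). Once that library was left out it was −0.66 (adjusted p = 9.655e-05, limma).

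Of the anchoring proteins *Akap12* (gravin), which binds PKA, protein kinase C and the β2-adrenergic receptor at the plasma membrane, rose most. It was 3021, 2485, 3527 and 3348 in si-P1 and 1532, 1507, 927.5 and 1295 in si-Ctrl, and the untransfected libraries held 1457 to 1634. The groups were far apart, with a log2 fold change of 1.25 (SE 0.13, adjusted p = 2.79e-06, limma), and the value ranged from 1.00 to 1.35 over the alternative settings. *Akap7*, whose products anchor PKA near calcium channels, was 507, 450, 558 and 474 in si-P1 and 456, 378, 233.5 and 365 in si-Ctrl. One si-Ctrl library lay among the si-P1 values, and the log2 fold change was 0.51 (SE 0.14, adjusted p = 0.0204, limma). *Akap5*, which brings PKA and calcineurin to calcium channels in β cells of mice, was a low-count gene with 15.2 to 22.1 in si-P1 and 2.54 to 17.8 in si-Ctrl. Its log2 fold change of 0.96 missed the threshold (adjusted p = 0.1075, limma) and passed with the replicate block (adjusted p = 0.0437, limma).

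Of the phosphodiesterases 31.8% were called in si-P1, where 13.3% of all genes tested were. With the replicate block the calls were again 6 higher and 1 lower of 22, while those of the RGS proteins became 1 higher and 6 lower of 15. With only the groups compared no phosphodiesterase passed. Leaving out si-Ctrl replicate 3 lost *Pde1c* and added *Pde1a* (higher) and *Pde5a* and *Pde10a* (lower). *Pde3b*, the cGMP-inhibited enzyme that limits cAMP and insulin secretion in β cells, was 3473, 2787, 3211 and 3348 in si-P1. In si-Ctrl it was 2583, 2567, 1275 and 2322, and in untransfected cells 2061 to 2335. The ranges did not overlap, and the log2 fold change was 0.60 (SE 0.15, adjusted p = 0.0113, limma). Its paralogue *Pde3a* was a low-count gene, at 36.5, 32.0, 38.1 and 33.0 in si-P1 and 28.2, 15.7, 5.08 and 13.8 in si-Ctrl. The log2 fold change was 1.31 (SE 0.36, adjusted p = 0.0199, limma), and against untransfected cells, where 1 library reached 30.6, it was 0.92 and did not pass (adjusted p = 0.0889, limma).

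Both called members of the PDE4 group, which are specific for cAMP, rose. *Pde4c* (ENSRNOG00000043249) was 385, 307.5, 425 and 388 in si-P1 and 248, 190, 317 and 221 in si-Ctrl, an overlap by si-Ctrl replicate 3 alone. Its log2 fold change was 0.64 (SE 0.14, adjusted p = 0.00543, limma), while that of the other *Pde4c* entry was −0.03 (adjusted p = 0.917, limma). *Pde4a* was 99.4, 81.8, 78.1 and 80.1 in si-P1 and 75.7, 47.1, 49.5 and 57.3 in si-Ctrl, separate but close. Its log2 fold change of 0.57 (SE 0.17, adjusted p = 0.0320, limma) lost the call in 8 of 17 alternative settings. *Pde4b* and *Pde4d* had log2 fold changes of 0.26 and 0.26 and did not pass (adjusted p = 0.370 and 0.632, limma).

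*Pde9a*, which is specific for cGMP, was 471, 515.5, 446 and 492 in si-P1 and 316, 314, 424 and 337 in si-Ctrl. All 4 si-P1 libraries were higher than each si-Ctrl library, by a log2 fold change of 0.48 (SE 0.10, adjusted p = 0.00338, limma). *Pde1c*, a calcium and calmodulin-activated enzyme that affects insulin secretion in β-cell lines, was 420, 402, 451 and 396 in si-P1 and 417, 331.5, 208 and 291 in si-Ctrl. There the groups overlapped. The log2 fold change of 0.46 (SE 0.15, adjusted p = 0.0427, limma) fell short in 9 of 17 settings, among them the one without si-Ctrl replicate 3. *Pde7a*, which is specific for cAMP, was the member of this class that fell: 400, 409, 373 and 410 in si-P1 and 597, 607, 391 and 572.5 in si-Ctrl. Only si-Ctrl replicate 3 was as low as the si-P1 libraries, and the log2 fold change was −0.42 (SE 0.11, adjusted p = 0.0118, limma) and −0.61 against untransfected cells. *Pde8b*, a high-affinity cAMP enzyme active in islets, had 49.5 ± 12.4 (SD, n = 4) and 42.6 ± 12.9, an interval of −0.36 to 0.82.

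**Figure D2:**
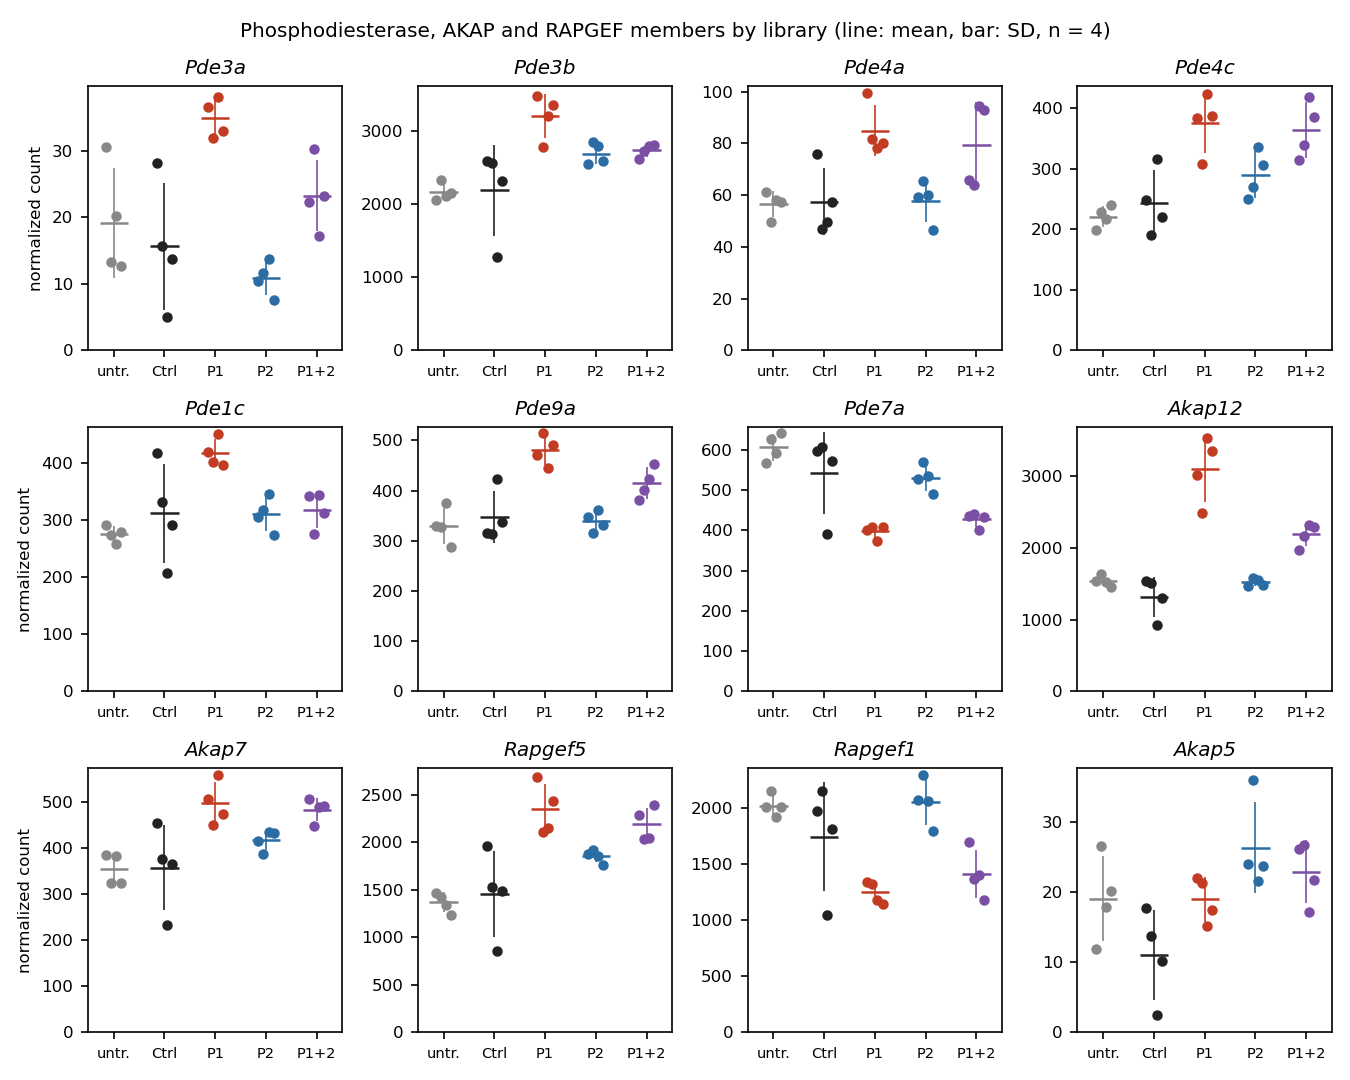
Normalized counts of phosphodiesterase, AKAP and RAPGEF members in each of the 20 libraries (points), with the mean (line) and SD (bar) of the 4 libraries per group; untr. is untransfected and the other labels are the siRNAs. *Akap12* is higher in all 4 si-P1 libraries than in every other library, and the low si-Ctrl point of *Rapgef1*, *Pde3b* and *Rapgef5* is replicate 3.

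Of the RGS proteins *Rgs22*, a long member of the family known mainly from testis, had the smallest p. Its counts were 358, 352, 375 and 370 in si-P1 and 693, 585.5, 667 and 716 in si-Ctrl, with 527 to 602 in untransfected cells. The si-P1 libraries were lower than all libraries of si-Ctrl, untransfected cells and si-P2, at a log2 fold change of −0.87 (SE 0.08, adjusted p = 1.23e-06, limma). *Rgs10*, which acts on Gi and Gz subunits, was 329, 297, 356 and 256 in si-P1 and 506, 427, 788 and 542 in si-Ctrl. The groups did not overlap, with a log2 fold change of −0.84 (SE 0.16, adjusted p = 0.00119, limma) and of −0.57 against untransfected cells.

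*Rgs16*, which acts on Gi and Gq subunits and is induced in islets by glucose, was 4572, 3141, 3999 and 3852 in si-P1 and 5418, 4716, 6041 and 5471 in si-Ctrl. The log2 fold change was −0.48 (SE 0.12, adjusted p = 0.0118, limma). In untransfected cells the counts were 3620 to 4716, which overlap si-P1, and against them the log2 fold change was −0.09 (adjusted p = 0.688, limma). *Rgs2*, which acts on Gq and on adenylyl cyclases, depended on the control in the opposite way, with the larger fall against untransfected cells. It was 107 ± 20.8 (SD, n = 4) in si-P1, 130 ± 29.7 in si-Ctrl and 178 ± 26.7 in untransfected cells, at −0.27 against the first control (adjusted p = 0.354, limma) and −0.73 against the second (adjusted p = 0.00537, limma). *Rgs5*, best known from pericytes, was 51.0, 21.3, 60.9 and 16.2 in si-P1 and 10.4, 7.85, 10.2 and 6.52 in si-Ctrl. Its log2 fold change of 1.80 (SE 0.57, adjusted p = 0.0422, limma) rests on few reads, and the call was lost in 9 of 17 alternative settings.

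**Figure D3:**
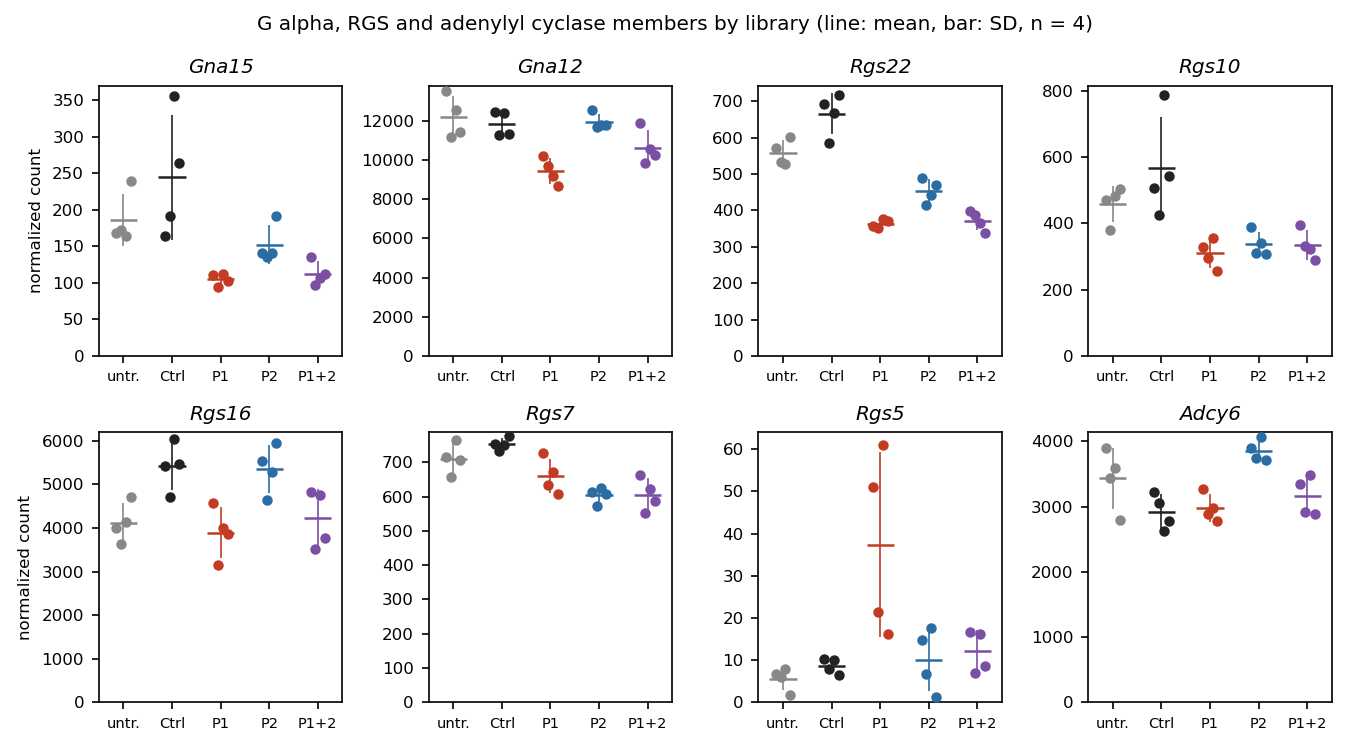
Normalized counts of Gα, RGS and adenylyl cyclase members in each of the 20 libraries (points), with the mean (line) and SD (bar) of the 4 libraries per group; untr. is untransfected and the other labels are the siRNAs. *Rgs22* and *Rgs10* are lower with each *Piezo* siRNA than with si-Ctrl, and *Adcy6* has its highest mean in si-P2.

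With the *Piezo2* siRNA, 4 members changed against si-Ctrl, 1 higher and 3 lower, or 4.94% where 2.08% of all genes tested passed (0.88% higher and 1.2% lower). The 3 that fell were RGS proteins. *Rgs10* was 389, 310, 341 and 309 in si-P2, below all si-Ctrl libraries, at −0.71 on the log2 scale (SE 0.16, adjusted p = 0.0213, limma). *Rgs22* was 489, 414, 442 and 469, at −0.55 (SE 0.08, adjusted p = 0.00125, limma). *Rgs7*, which acts on Go proteins together with the β subunit Gβ5, was 614, 571, 624 and 607.5 in si-P2 and 754, 734, 750 and 775 in si-Ctrl, narrow ranges that did not overlap. Its log2 fold change was −0.32 (SE 0.07, adjusted p = 0.0236, limma), and the call was lost in 8 of 17 alternative settings. In si-P1 *Rgs7* was 608.3 to 725.5, also below all si-Ctrl libraries. There it missed the threshold (−0.19, adjusted p = 0.0801, limma) and passed with the replicate block (adjusted p = 0.0170, limma). The member that rose was *Adcy6*, a cyclase that calcium inhibits: 3904, 3742, 4066 and 3716 in si-P2 and 3219, 3058, 2627 and 2779 in si-Ctrl, at 0.40 (SE 0.09, adjusted p = 0.0275, limma). Its untransfected libraries spread from 2801 to 3905 and overlap si-P2. Against untransfected libraries none of the 4 passed, with adjusted p of 0.0781 to 0.485 (limma) and log2 fold changes in the same directions. Leaving out si-Ctrl replicate 1 gave 11 members. Leaving out si-Ctrl replicate 4 gave 2, as did leaving out si-P2 replicate 1, and leaving out si-P2 replicate 2, 3 or 4 gave 1. *Akap5* was 24.1, 36.1, 21.6 and 23.9 in si-P2, above each si-Ctrl library, and missed the threshold (log2 fold change 1.40, adjusted p = 0.0606, limma). It passed with DESeq2 (adjusted p = 0.0104), with the replicate block (adjusted p = 0.0143, limma) and when si-Ctrl replicate 1 or 2 was left out (adjusted p = 0.0200 and 0.0496, limma).

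With both siRNAs, 7 members changed against si-Ctrl, 3 higher and 4 lower, or 8.64% where 4.76% of all genes tested passed (2.41% higher and 2.35% lower). *Akap12* was 1972, 2169, 2325 and 2296, above all si-Ctrl and below all si-P1 libraries, at a log2 fold change of 0.76 (SE 0.13, adjusted p = 0.00126, limma). *Rapgef5* was 2040 to 2391, at 0.64 (adjusted p = 0.0233, limma), and *Pde4c* (ENSRNOG00000043249) 315 to 418, which overlaps si-Ctrl, at 0.59 (adjusted p = 0.0196, limma). The genes that fell were those of the G protein side. *Gna15* was 136, 96.5, 107 and 112, at −1.06 (adjusted p = 0.00327, limma), and *Rgs22* was 398, 387, 364 and 338, at −0.84 (adjusted p = 8.06e-06, limma). *Rgs10* fell by 0.73 on the log2 scale and *Rgs7* by 0.32 (adjusted p = 0.00932 and 0.0119, limma). Each of these 4 groups of libraries lay wholly below si-Ctrl. Against untransfected libraries 11 members passed, and *Rgs10* and *Rgs7* no longer did (adjusted p = 0.0824 and 0.0505, limma). Leaving out si-Ctrl replicate 3 gave 15 members, and leaving out si-Ctrl replicate 1 gave 12. All 3 comparisons share the si-Ctrl libraries, so the recurrence of *Rgs10* and *Rgs22* in them is not independent.

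With both siRNAs compared with si-P1 alone, 0 of the 81 members changed (limma), where 0.0443% of all genes tested passed. At an unadjusted p under 0.05 there were 5 members, and 932 of all 15802 genes tested. edgeR called 0 members and DESeq2 1, *Akap12*. *Akap12* had a log2 difference of −0.49 and a 95% confidence interval of −0.75 to −0.23 (adjusted p = 0.280, limma). For *Gna15* the interval was −0.32 to 0.50 and for *Rgs22* −0.14 to 0.20. The test of the interaction, which asks whether the effect of both siRNAs departs from the sum of the single effects, called 0 members (limma), where 0.00633% of all genes tested passed. At an unadjusted p under 0.05 there were 10 members, and 1540 of all 15802 genes tested. edgeR called 0 and DESeq2 3: *Rgs22* (log2 scale 0.58), *Rgs10* (0.86) and *Akap12* (−0.71). With the replicate block *Rgs22* (0.58) and *Rgs10* (0.83) passed in limma. For the RGS genes the sign is that of a fall with both siRNAs smaller than the summed falls.

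A comparison of the single siRNAs with each other, added after the data were seen, leaves out the si-Ctrl libraries except in the pooled spread. It called 14 members, 7 higher and 7 lower in si-P1, or 17.3% where 14.7% of all genes tested passed. With only these libraries in the fit 33 members passed, and the share of all genes in that fit is not given here. *Akap12* differed by 1.01 on the log2 scale (SE 0.13, adjusted p = 2.56e-05, limma), with 1470 to 1575 in si-P2. *Pde9a* (0.50, adjusted p = 0.00219, limma), *Pde3a* (1.62, adjusted p = 0.00473, limma), *Pde4a* (0.55, adjusted p = 0.0379, limma) and *Rgs5* (1.97, adjusted p = 0.0245, limma) were also higher in si-P1. Their si-P1 and si-P2 libraries did not overlap, except those of *Rgs5*. In this comparison the call of *Pde4a* was lost in 9 of 16 alternative settings and that of *Rgs5* in 4. *Gna12* (−0.35, adjusted p = 0.00289, limma), *Rgs16* (−0.47, adjusted p = 0.0138, limma), *Rgs22* (−0.32, adjusted p = 0.0113, limma), *Pde7a* (−0.41, adjusted p = 0.0127, limma) and *Adcy6* (−0.37, adjusted p = 0.00995, limma) were lower in si-P1.

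The other 4 had not passed against si-Ctrl and are named after their values were seen. *Rapgef1* was 2070, 2297, 2062 and 1796 in si-P2, above all si-P1 libraries, and the log2 difference of si-P1 from it was −0.72 (SE 0.16, adjusted p = 0.00489, limma). *Pde7b*, a cAMP enzyme, was lower in si-P1 at 35.55 to 68.0 against 68.3 to 100.4 (−0.70, adjusted p = 0.0271, limma), so that the groups nearly met. *Rgs9*, which acts on transducin and Gi and Go subunits, was 1282 to 1699 in si-P1 and 811 to 1136 in si-P2 (0.53, adjusted p = 0.0245, limma). *Rgs20*, which acts on Gz, was 21.3 to 37.7 and 10.0 to 15.6 (1.09, adjusted p = 0.0117, limma). For *Rgs10* the difference was −0.13 with an interval of −0.46 to 0.20. Of the genes called in si-P1 against si-Ctrl, *Gna15*, *Pde3b*, *Pde4c*, *Pde1c*, *Rapgef5*, *Akap7* and *Rgs10* did not pass here. With the replicate block *Gna15*, *Pde4c* (ENSRNOG00000043249) and *Pde1c* passed (adjusted p = 0.0477, 0.0213 and 0.0413, limma), and with only these libraries in the fit all of them but *Rgs10* did. Between si-P1+2 and si-P2, also added after the data were seen, 1 member passed, *Akap12* (0.52, adjusted p = 0.0291, limma), where 2.5% of all genes tested did. That count was 0 when any of the si-P2 libraries or of si-P1+2 replicates 2, 3 and 4 was left out, and 2 when si-P1+2 replicate 1 was.

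**Figure D4:**
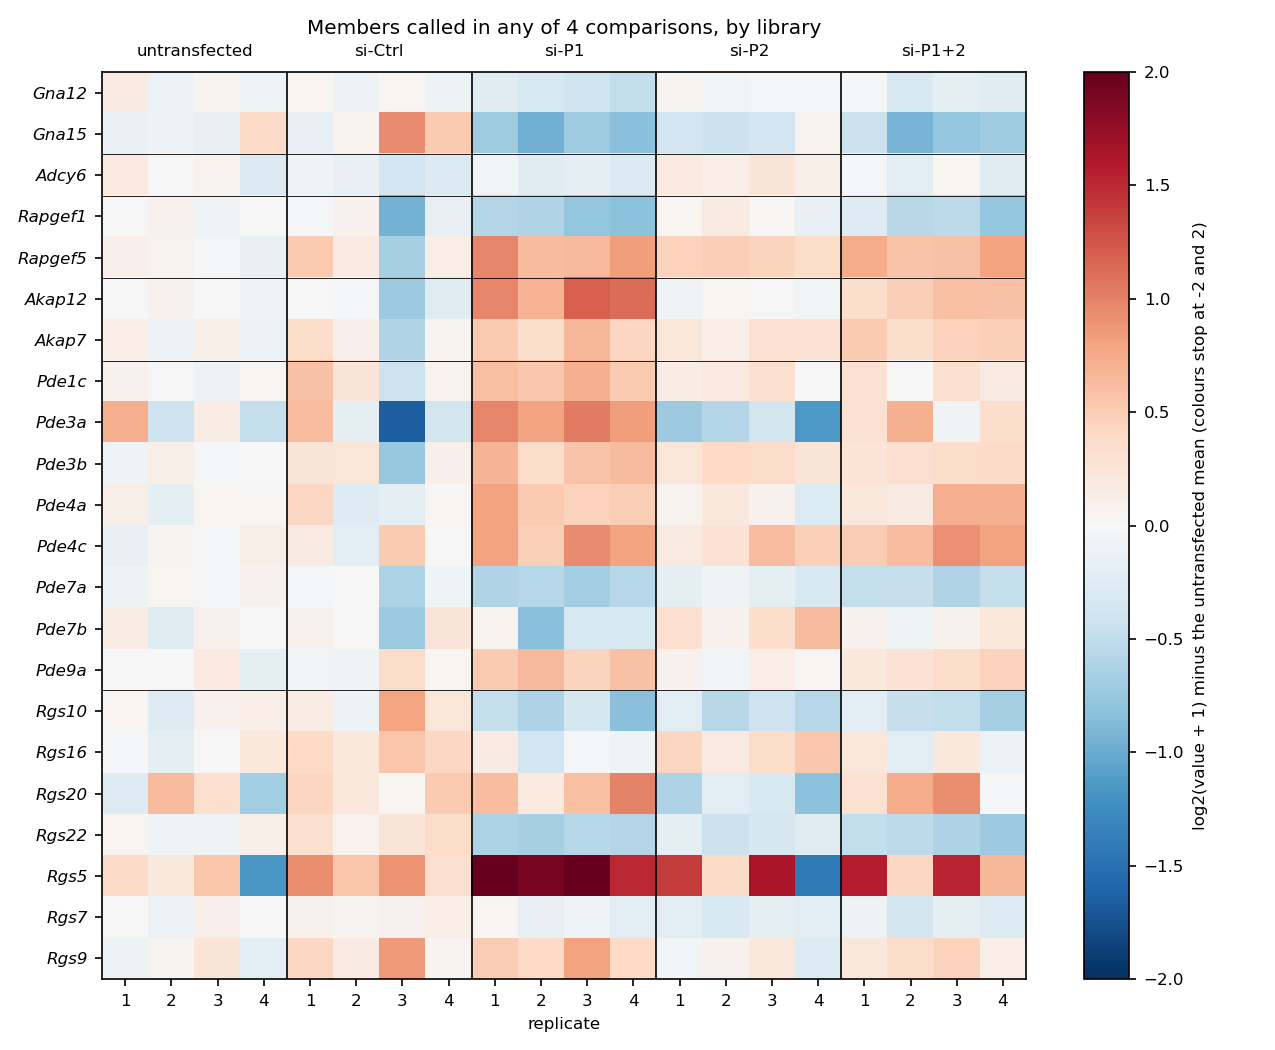
The 22 members called with any of the *Piezo* siRNAs against si-Ctrl, or between the single *Piezo* siRNAs, by library. Colour is log2(value + 1) minus the mean of the 4 untransfected libraries, with columns for replicates 1 to 4 of each group; si-Ctrl replicate 3 differs from its group in *Pde3a*, *Rapgef1*, *Akap12*, *Gna15* and *Rgs10*.

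Transfection with the non-targeting siRNA changed 0 of the 81 members against untransfected cells (limma), where 0.0886% of all genes tested passed (0.0696% higher and 0.019% lower). At an unadjusted p under 0.05 there were 15 of the 81 members, and 1569 of all 15802 genes tested. edgeR called 0, and DESeq2 called *Gna11* (log2 fold change −0.27). With the replicate block 3 members passed: *Rgs16* (0.40) and *Rgs9* (0.37) were higher in si-Ctrl and *Rgs2* (−0.46) was lower, with adjusted p of 0.0268, 0.0365 and 0.0372 (limma). *Rgs16* was 5411 ± 543 (SD, n = 4) in si-Ctrl and 4114 ± 455 in untransfected cells, and the highest untransfected library and the lowest si-Ctrl library were both at 4716.

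Promoters were read for a sequence that cAMP signalling itself uses. CREB, the factor that PKA phosphorylates, binds the cAMP response element (CRE), TGACGTCA, and also a short form of it, TGACG, which lies within the full element. RefSeq promoters (GRCr8, 250 bases before to 50 after the start) were matched by symbol for 60 of the 81 members and searched on both strands. The full element was in 2 of the 60 (3.33%) and in 2.1% of all 21842 promoters, and the short form was in 14 of the 60 (23.3%) and in 23.5% of all. Both shares were close to the background. The stretches with the full element are shown 5′ to 3′ with the matched bases in capitals. So is that of *Pde4a*, the only member called in si-P1 with the short form among the 60 searched. The called *Rgs22*, *Pde3b*, *Pde4c*, *Pde7a* and *Pde9a* had no matched promoter and were not searched. *Gnao1* and *Akap17a* lie on the minus strand and *Pde4a* on the plus strand.
*Gnao1* promoter (chr19:11198526-11198583, element 121 bases before the start): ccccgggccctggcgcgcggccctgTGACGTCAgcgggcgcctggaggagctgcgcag
*Akap17a* promoter (chr12:21428427-21428484, element 212 bases before the start): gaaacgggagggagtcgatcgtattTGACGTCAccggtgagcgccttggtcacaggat
*Pde4a* promoter (chr8:27966951-27967008, short form 11 bases before the start): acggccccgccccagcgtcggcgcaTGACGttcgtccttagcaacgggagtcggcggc
Neither gene with the full element was called in a comparison with si-Ctrl when all libraries were used. *Gnao1*, the Go subunit, was 2254 ± 118 (SD, n = 4) in si-P1 and 2448 ± 590 in si-Ctrl (log2 fold change −0.08, adjusted p = 0.740, limma). Leaving out si-Ctrl replicate 3 gave −0.28, which passed (adjusted p = 0.00107, limma). *Akap17a*, an anchoring protein that also acts in splicing, was 3030 ± 102 and 3460 ± 687 (−0.17, adjusted p = 0.229, limma). A match is a description of letters, and no binding was measured.

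Genes on either side of the members were counted from 6 lists written from general knowledge. The lists were chosen with earlier results of these data known, so their counts are not an independent test. Of 25 receptors coupled to cAMP that were tested, 4 rose and 4 fell in si-P1, where 7.07% of all genes tested were higher and 6.28% lower. *Crhr1*, the Gs-coupled receptor of corticotropin-releasing hormone, rose from a mean of 811 in si-Ctrl to 1636 (log2 fold change 1.02, adjusted p = 3.71e-07, limma). *Npy1r*, *Ptger3* and *Adora2a* rose by 1.14, 0.98 and 0.33. *Gcgr*, the glucagon receptor, had means of 3159 and 2218 (−0.50, adjusted p = 0.000798, limma), and *Adora2b*, *Adora1* and *Sstr3* were lower by −0.71, −0.30 and −0.22. *Crhr1* and *Adora2a* couple to Gs and *Npy1r* and *Ptger3* mainly to Gi, and of the lower genes *Gcgr* and *Adora2b* couple to Gs and *Adora1* and *Sstr3* to Gi. In si-P2 the one receptor called was *Adora2b* (−0.51), and in si-P1+2 *Crhr1* (0.31) was higher and *Gcgr* (−0.33) and *Adora2b* (−0.55) lower. *Crhr1* was also lower in si-P1+2 than in si-P1 (−0.71, adjusted p = 0.000546, limma).

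Of 24 transcripts that respond to cAMP, 5 rose in si-P1 and 0 fell, to be read, like the counts of the lists that follow, against the same 7.07% and 6.28% of all genes tested. *Cartpt*, a neuropeptide precursor, had means of 133 in si-Ctrl and 2042 in si-P1 (log2 fold change 4.24, SE 0.65, adjusted p = 0.000209, limma). *Scg2*, a granin of secretory granules, was at 37160 and 59650 (0.69, adjusted p = 5.62e-05, limma), and *Tac1*, *Id2* and *Irs2* rose by 0.81, 0.78 and 0.45. The median log2 fold change of that list was 0.21, where that of all genes tested was 0.02. All the lists were counted only in the main fit, so their dependence on si-Ctrl replicate 3 was not tested. In si-P1 against si-P2, added after the data were seen, 5 of this list were higher and 0 lower. The median there was 0.20, and 14.7% of all genes tested passed. *Cartpt* (3.57) and *Scg2* (0.49) also rose in si-P1+2, and none of the list passed in si-P2. Of 18 PKA inhibitors, Rap proteins and other effectors, *Pkia*, an inhibitor of the PKA catalytic subunit, rose by 0.64, and *Rap2b* (−0.39) and *Hcn2* (−0.28) fell. Of 13 genes of CREB, its coactivators and kinases, *Creb3* rose by 0.26, and *Sik2* (−0.30) and *Sik3* (−0.20), kinases that restrain CREB coactivators, fell. Of 13 β and γ subunits *Gng8* (−0.94) fell, and of 13 genes of receptor desensitisation *Grk6* (−0.21) fell. In si-P2 and si-P1+2, 0 genes of these last 4 lists passed (limma).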

How the data were processed

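RNA of 20 libraries in 5 groups of 4 was sequenced after poly-A selection with a stranded kit. The authors quantified reads with Salmon (0.14.0) on Rnor_6.0 and deposited a signal value per gene and library: counts divided by a size factor from DESeq2 (1.25.10). FastQC (0.11.8) and MultiQC (1.7) were their quality checks. The step from transcripts to genes is not given in the sources used here. All values were whole multiples of the value of 1 read (100% within 0.001), so whole reads were recovered for the count tests (16679934 to 56926609 per library). All 20 columns matched a sample. Levels were not compared between genes, since no gene lengths were used.

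Genes above 0 in at least 50% of libraries were kept, which left 15802 and all 81 members. log2(value + 1) was fitted in R (4.3.3) with limma (3.58.1), a mean for each of the 5 groups and a variance trend (residual degrees of freedom: 15). Tests were two-sided with Benjamini-Hochberg adjustment over all genes tested and a threshold of 0.05. Fold changes are on the log2(value + 1) scale, which understates changes of low genes. The interaction was the change from si-P1 to si-P1+2 less that from si-Ctrl to si-P2. Alternatives were a pseudocount of 0.5, no filter, equal totals, quantile normalization, edgeR (4.0.16) and DESeq2 (1.42.0) on recovered reads, only the groups compared, a replicate block, untransfected libraries as controls, and leaving out each library. The scripts were tested on simulated data.

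Deviations of same-numbered libraries from their group means were correlated. For si-P1 with si-Ctrl r was 0.128 to 0.539, for untransfected cells with si-Ctrl 0.118 to 0.485, for both siRNAs with si-P1 alone 0.225 to 0.44 and with si-P2 alone 0.304 to 0.48, and for the single siRNAs 0.311 to 0.395. In these all 4 pairs exceeded 0.1 and were taken as paired. With r of −0.145 to 0.367 (si-P2) and −0.0351 to 0.448 (both siRNAs), comparisons with si-Ctrl were not. The main fit held no replicate term. Its p-values therefore leave the pairing out, and only the replicate block uses it. The labels say nothing of what a shared number marks.

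Named are all members called in a comparison with si-Ctrl or untransfected cells or of si-P1+2 with si-P1 (at most 25 each), and, called or not, *Gnas*, *Gnai2*, *Gnaz*, *Gnaq*, *Adcy5*, *Adcy8*, *Pde1c*, *Pde3b*, *Pde8b*, *Prkaca*, *Prkar1a*, *Rapgef4*, *Rgs2*, *Rgs4*, *Rgs16* and *Akap5*. The comparisons of si-P1 and of si-P1+2 with si-P2 were added after the data were seen. Other members were named after their values were seen. The members and gene lists were chosen with earlier results of these data known.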

Additional observations from a re-analysis of the deposited data

Results flagged for a closer look

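Among the 31 members named by rule, 155 groups of 4 libraries were examined for a library far from the other 3, and 9 held one. Chance alone gives about 1 such group in 20. *Prkar1a* (7439, the others 9490 to 9712) and *Pde7a* (391, the others 572.5 to 607) were low in si-Ctrl replicate 3, the library that stood apart. *Gnaz* was high in si-Ctrl replicate 1 (2343, the others 2010 to 2066). *Gna15* was high in untransfected replicate 4 (239.8, the others 164.5 to 172) and in si-P2 replicate 4 (192, the others 136 to 141.5). *Gna12* was high in si-P2 replicate 1 (12570, the others 11680 to 11812) and *Pde8b* in si-P1 replicate 1 (68.0, the others 41.7 to 44.4). In si-P1+2, *Prkar1a* was high in replicate 1 (9750, the others 9014 to 9104) and *Pde7a* low in replicate 3 (401, the others 434 to 440.5).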

How the results depend on the processing

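The calls of *Akap12*, *Gna15*, *Rgs10* and *Rgs22* in si-P1 and of *Rgs22* in si-P1+2 against si-Ctrl held in all 17 alternatives. No call of a named gene reversed its direction. Named genes that were not called were left out of that check. With only the groups compared, members called numbered 4 in si-P1, 0 in si-P2 and 1 in si-P1+2 against si-Ctrl, 33 in si-P1 against si-P2 and 13 in si-P1+2 against si-P2. With DESeq2 they numbered 7 in si-P2 and 13 in si-P1+2 against si-Ctrl, 1 in si-Ctrl against untransfected cells, 1 in si-P1+2 against si-P1, 3 in the interaction and 6 in si-P1+2 against si-P2. With the replicate block they numbered 10 in si-P2 and 15 in si-P1+2 against si-Ctrl, 3 in si-Ctrl against untransfected cells, 2 in the interaction and 9 in si-P1+2 against si-P2; in si-P1 it gave 23 and in si-P1 against si-P2 21. With untransfected controls there were 0 in si-P2 and 11 in si-P1+2, and with equal totals 0 in si-P1+2 against si-P2. Leaving out 1 library gave 11 to 23 in si-P1, 1 to 11 in si-P2, 5 to 15 in si-P1+2, 10 to 13 in si-P1 against si-P2 and 0 to 2 in si-P1+2 against si-P2. Counts under these settings, here and above, are given without the share of all genes tested in the same setting. They do not single out the members. The causes of these changes were not tested. Counts near the floor (*Rgs5*, *Pde3a*, *Akap5*) limit precision.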
